A study of Bos taurus with 18 samples.

Results

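The highly methylated CpGs of EBTr cells, a bovine line of embryonic tracheal fibroblasts, were taken as the tested CpGs with a mean M-value above 3 over all 18 libraries of the study. An M-value is the log2 of methylated over unmethylated reads, and a value of 3 stands for a methylation level of 88.9%. Of 31500 tested CpGs, 5019 (15.9%) met this rule. DNA methylation had been measured by RRBS (reduced representation bisulfite sequencing), in which DNA is cut with a restriction enzyme and treated with bisulfite so that methylated and unmethylated cytosines can be told apart in CpG-rich fragments.

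Each of the 6 treatments had 3 libraries. Low cells were cultured with 1 g/L glucose and High cells with 4.5 g/L glucose, and within each glucose level the medium held EM (epigenetic modifiers, namely methionine, folate, choline and vitamin B12) at the Control level, at ×2.5 or at ×5. The labels give 2.5 and 5 times the Control level for all 4 compounds, while the paper's methods give another, single factor for methionine in the supplemented media. All cells were grown in Eagle's Minimum Essential Medium with fetal bovine serum, penicillin-streptomycin and pyruvate, to the same target confluence. All libraries came from this 1 cell line, and nothing in the labels says that the 3 tubes of a treatment were separate cultures, so p-values measure only the spread between these libraries, which may be technical. No marker of the cell type can be checked in methylation values.

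In mammals, methyl groups are placed on the cytosine of CpG sites, where a CG on 1 strand faces a CG on the other. DNMT1, the maintenance methyltransferase, copies the pattern from the old strand to the new strand after replication, and DNMT3A and DNMT3B place new methyl groups. All of them take the methyl group from S-adenosylmethionine, the product of the methionine and folate cycles that the supplemented compounds feed. Outside CpG islands and active regulatory regions, most CpG sites of somatic cells are methylated. Whether the CpGs described here lie in such islands or regions was not determined.

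The rule used the mean of all 18 libraries, so the levels of these CpGs are a description. Their median mean M-value was 3.42, with a lowest of 3.00 and a highest of 5.96. In percent, the median mean level was 91.1%, from 87.4% to 98.2%. Most lay close to the threshold, with 2836 (56.5%) between 3 and 3.5, 1337 (26.6%) between 3.5 and 4, 775 (15.4%) between 4 and 5 and 71 (1.41%) above 5. The spread around these means differed little in M-values and more in percent. Between replicates, the median SD was 0.49 on the M scale, against 0.43 over all tested CpGs, and 2.55 percentage points, against 4.58 over all tested CpGs. Of the 5019 CpGs, 1215 (24.2%) had an M-value above 3 in every one of the 18 libraries, and 8 had a value below 1 in at least 1 library. Read depth per CpG is unknown from the deposited values, so no counting error could be given for a single value.

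The 3 CpGs just inside the threshold were at chr4:28960264 (among CpGs assigned to ITGB8, an integrin subunit), chr19:57344123 (RAB37, a small GTPase) and chr2:124756335, and all had a mean M-value of 3.00. Those just outside it were at chr21:70102930, chr21:2111646 and chr4:27733092, and they also had a mean of 3.00 after rounding. Mean levels were 88.5% to 88.7% for the first group and 88.4% to 88.8% for the second. Nothing in these values separates the groups, and the threshold is a line through a continuous distribution.

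At the upper end, the highest mean was 5.96 at chr10:104228453, where the mean level was 98.2%. That CpG lies among CpGs assigned to TERB2, a protein that joins telomeres to the nuclear membrane in meiosis. Its levels ran from 97.5% to 98.1% in Low Control, from 98.6% to 99.1% in Low ×2.5, from 98.7% to 99.2% in Low ×5, from 98.4% to 98.7% in High Control, from 95.7% to 99.0% in High ×2.5 and from 97.0% to 98.7% in High ×5. The High ×2.5 range was the widest and overlapped all the others. The Low Control range lay below those of Low ×2.5, Low ×5 and High Control without overlap. This CpG was named for its mean and not for a difference. Positions chr10:104228451 and chr10:104228454 had means of 5.85 and 5.80. The remaining CpGs among the highest 5 were at chr14:583266 (C14H8orf33, mean 5.88) and chr21:2018593 (UBE3A, mean 5.76). UBE3A is a ubiquitin ligase whose maternal copy alone is active in mammalian neurons.

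Some CpGs of high mean level varied strongly. The largest SD over the 18 libraries, 1.13, was at chr9:20861029, among CpGs assigned to BCKDHB, a subunit of the enzyme that degrades branched-chain keto acids. Low Control replicate 1 had 93.9% there, replicate 2 had 77.4% and replicate 3 had 74.2%. The other 15 libraries lay between 91.5% and 98.3%, all above Low Control replicates 2 and 3. The smallest SD, 0.10, was at chr14:43043622, with levels from 91.0% to 93.0% in all 18 libraries.

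Each tested position is a single cytosine, and 2 adjacent positions are the cytosines of both strands of 1 CpG site. Both strands were tested at 6206 sites. Of these, 894 had a mean above 3 on both strands, 409 on 1 strand and 4903 on neither. In all, the 5019 positions belong to 4125 of 25294 CpG sites. Where a highly methylated cytosine had its other strand tested, the other strand was highly methylated as well in 1788 of 2197 cases (81.4%). For comparison, 17.7% of all tested cytosines with a tested partner had a partner above 3. The other strand of the 409 sites with a single highly methylated strand had a median M-value of 2.76, which is 86.6%, so most of these partners fell just short of the threshold. Across all 6206 sites, Pearson's r of the 2 strands was 0.94, as a description, since the strands share libraries and treatments.

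A few sites differed sharply between strands. At chr17:35643699 the mean M-value was 3.95, and at the next position it was -2.13. This site lies among CpGs assigned to IL2, a growth factor of T cells. At chr4:120644707, among CpGs of VIPR2 (a receptor for vasoactive intestinal peptide), the levels were 95.0% and 24.8%, and at chr27:26381816 they were 93.7% and 27.8%. In total, 21 of the 2197 partners (0.956%) had a mean M-value below 1.

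**Figure D1:**
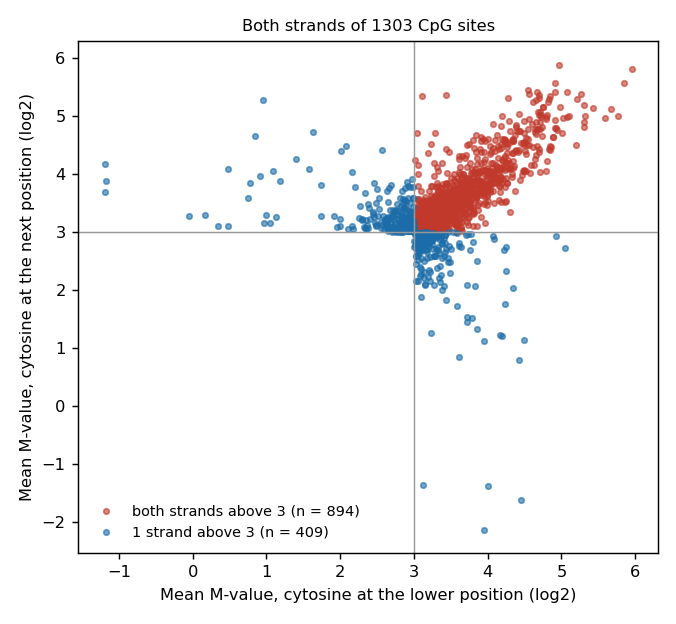
Mean M-values (log2 of methylated over unmethylated reads, 18 libraries) of the cytosines on both strands of the 1303 CpG sites with at least 1 highly methylated strand; each point is a site, and the grey lines mark the threshold of 3. The 894 sites above 3 on both strands form a band along the diagonal, and the few points far from it include the sites near IL2 and VIPR2.

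All chromosomes held highly methylated CpGs, at unequal shares of their tested CpGs. The share was lowest on chromosome 13, with 34 of 615 (5.53%), and highest on chromosome 24, with 131 of 428 (30.6%). Gaps of more than 10 kb divide the tested CpGs into 612 regions, of which 425 held at least 1 highly methylated CpG. A set of 52 regions held 50% of them. Among the 163 regions with at least 50 tested CpGs, the median share was 13.8%, 7 regions were above 50%, and 8 held none.

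Regions are named here by the genes that the study's annotation gives to their CpGs, which is the closest start site at any distance. A name therefore does not place a CpG inside a gene, and exons and introns were not determined, since no annotation of bosTau8 was used. The highest share was in the PLOD3 region, chr25:36108598-36109462, where 88 of 107 tested CpGs (82.2%) were highly methylated. PLOD3 modifies lysines of collagen, a main product of fibroblasts. The other regions above 50% were those named for C14H8orf33 (51 of 69, chr14:277750-278202), VIPR2 (68 of 112, chr4:120643492-120644777), TERB2 (36 of 60, chr10:104228435-104229030), WDR5 (34 of 58, chr11:105122536-105122910), CEP162 (103 of 188, chr9:65872611-65874010) and PPP6R3 (71 of 133, chr29:46586307-46591763). WDR5 is a core subunit of histone H3 lysine methyltransferase complexes, CEP162 is a protein of the centriole and the base of the cilium, and PPP6R3 is a regulatory subunit of a protein phosphatase.

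By number, the IFITM3 region held the most, with 130 of 285 tested CpGs on chr11:107284609-107305137, followed by the IL2 region with 105 of 351 on chr17:35643477-35656648 and the CEP162 region. IFITM3 is an interferon-induced membrane protein that restricts entry of viruses. At the other extreme, the region named for RN45S, the precursor of ribosomal RNA, held 0 of 152 on chr25:32456283-32472736. By gene instead of region, C14H8orf33 had the most, with 316 of 1074 assigned CpGs spread over chr14:7484-1363609. In total, 4062 of the 5019 CpGs (80.9%) could be assigned to 243 genes, beside 25162 of all 31500 tested CpGs to 365 genes.

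The PLOD3 and CEP162 regions differ in how uniform they are. In the PLOD3 region, the 19 CpGs below the threshold had mean levels from 50.3% to 88.4%, with a median of 84.3%. In the CEP162 region, the 85 CpGs below the threshold went down to 2.43%, with a median of 74.2%, and lay between highly methylated CpGs along the whole region.

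**Figure D2:**
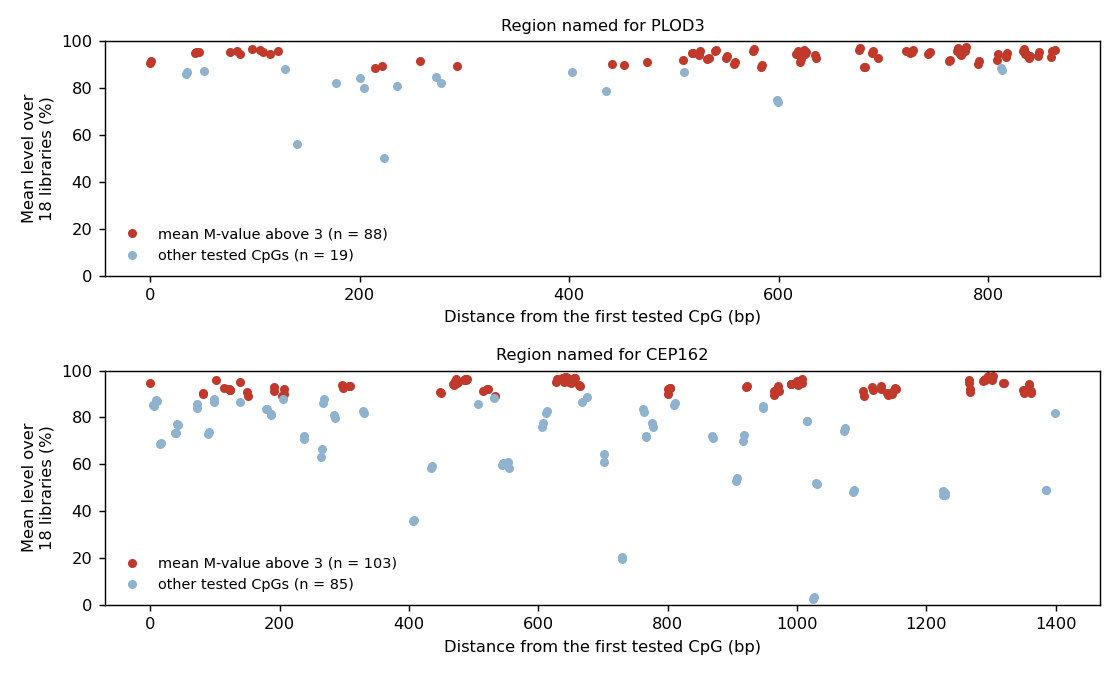
Mean methylation level over 18 libraries (vertical axis, percent) against the distance from the first tested CpG (horizontal axis, bp) in the PLOD3 region (top) and the CEP162 region (bottom). Each point is a CpG position; red points have a mean M-value above 3 (88 and 103), and blue points are the other tested CpGs (19 and 85), which reach down to 50.3% in the PLOD3 region and to 2.43% in the CEP162 region.

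A highly methylated CpG was followed by another at a higher rate than other CpGs were. A run was defined as consecutive tested CpGs, less than 100 bp apart, that were all highly methylated. The 5019 CpGs formed 2912 runs, of which 1933 held a single CpG, 619 held 2 and 360 held at least 3. These 360 runs contained 1848 CpGs, or 36.8%. Within 100 bp, the CpG following a highly methylated one was highly methylated in 47.5% of 4433 cases, while the CpG following any other was highly methylated in 9.69% of cases. Counted only between different CpG sites, leaving out the other strand of the same site, the shares were 36.2% and 11.2%. Few of the CpGs stood alone in the data, since only 9 (0.179%) had no other tested CpG within 100 bp. The share was also low over all tested CpGs, at 0.648%.

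The longest run was in the PLOD3 region, with 38 positions of 20 CpG sites in 193 bp at chr25:36109215-36109407. Its mean level was 94.4%, from 89.0% to 97.5% between positions. Next came a run of 24 positions in the IFITM3 region, chr11:107284844-107284920, with a mean level of 95.4%, and a run of 21 positions among CpGs assigned to UBE3A, chr21:2535706-2535766, with 95.2%.

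The treatment means of each of these runs lay within a narrow range of levels. In the PLOD3 run the mean level was 93.7% ± 1.08 (SD, n = 3) in Low Control, 94.5% ± 0.363 in Low ×2.5, 95.0% ± 0.471 in Low ×5, 94.8% ± 0.378 in High Control, 94.5% ± 0.725 in High ×2.5 and 93.7% ± 0.915 in High ×5. For the UBE3A run, the treatment means lay between 94.9% and 95.4%. In the PLOD3 run, all High ×5 libraries lay below those of Low ×5. In the UBE3A run, all libraries of Low ×2.5, Low ×5, High Control and High ×2.5 lay above those of Low Control, which was at 94.9% ± 0.0898 (SD, n = 3) against 95.4% ± 0.213 in Low ×5. No test was made on the mean of a run, and none of the 21 CpGs of the UBE3A run was called in any of the contrasts described next.

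Across libraries, the mean level of the 5019 CpGs was not even. In Low Control, replicate 1 had 92.2%, replicate 2 had 89.8% and replicate 3 had 88.8%. The Low ×2.5 libraries had 91.4%, 92.4% and 92.4%, and those of Low ×5 had 92.9%, 92.3% and 92.0%. In High Control the levels were 92.3%, 91.6% and 92.1%. The High ×2.5 libraries had 92.2%, 91.2% and 90.2%, and those of High ×5 had 90.8%, 89.8% and 91.5%. Low Control replicates 2 and 3, High ×2.5 replicate 3 and High ×5 replicate 2 were the 4 lowest libraries, and Low Control replicate 1 lay among the higher libraries, so the Low Control range spans nearly that of the whole study.

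By treatment, the mean level was 90.3% ± 1.75 (SD, n = 3) in Low Control, 92.1% ± 0.561 in Low ×2.5 and 92.4% ± 0.474 in Low ×5. In High cells the order was the opposite, with 92.0% ± 0.338 in High Control, 91.2% ± 1.00 in High ×2.5 and 90.7% ± 0.836 in High ×5. The libraries of High ×5 all lay below those of High Control and below those of Low ×5. In the other 5 contrasts the ranges overlapped. The number of highly methylated CpGs with a value above 3 in a given library followed the same order, from 2701 (53.8%) in Low Control replicate 3 to 4696 (93.6%) in Low ×5 replicate 1.

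Unmethylated CpGs moved the opposite way across the same libraries. The 444 CpGs whose mean was -3 or lower had a mean level of 10.4% in Low Control replicate 3 and 4.91% in Low ×5 replicate 1, the libraries that were lowest and highest for the highly methylated CpGs. By treatment, their level was 8.42% ± 2.22 (SD, n = 3) in Low Control, 5.86% ± 0.879 in Low ×2.5, 5.42% ± 0.492 in Low ×5, 5.94% ± 0.695 in High Control, 7.14% ± 1.21 in High ×2.5 and 7.13% ± 1.16 in High ×5. In the 8716 CpGs whose mean lay between -1 and 1, the treatment means lay between 51.6% and 52.1%. The SD of all 31500 M-values moved with both ends, from 1.58 in Low Control replicate 3 to 1.83 in Low ×5 replicate 1. The part of this library-wide spread in the treatment differences below was not tested as a cause. The numbers called and the median differences are also given with all libraries scaled to the same SD. For this equal SD, each library was first centred on its median, so a common shift is taken out as well.

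**Figure D3:**
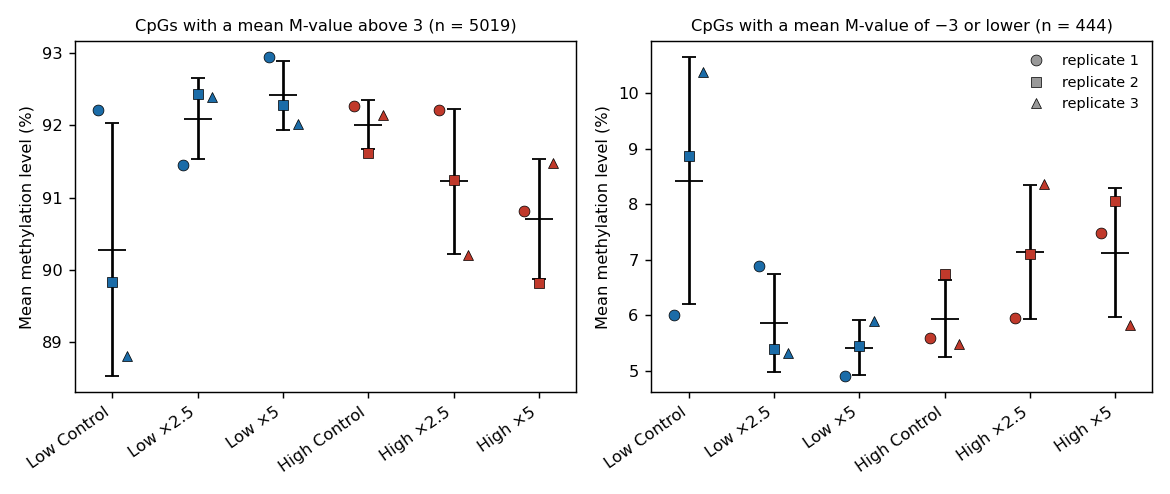
Mean methylation level (percent) of the 5019 highly methylated CpGs (left) and of the 444 CpGs whose mean M-value was -3 or lower (right) in each library; symbols mark the replicates, and bars show the mean and SD of 3 libraries. On the left, Low Control replicates 2 and 3 (89.8% and 88.8%) and High ×5 replicate 2 (89.8%) are lowest; the same libraries are among the highest on the right.

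Differences between treatments were tested at each CpG with limma on the M-values, in a fit of all 31500 CpGs and 18 libraries with 1 mean per treatment. Calls were made at p under 0.01 without adjustment, the threshold of the study, and a called CpG is termed methylated if its mean was higher in the treatment named first and demethylated if it was lower there. The mean that chose the CpGs gives all libraries the same weight and holds no contrast between treatments. No highly methylated CpG had a Benjamini-Hochberg adjusted p-value under 0.05 in any of the 7 contrasts or in the F-test. Contrasts that share a treatment are not independent of each other.

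In Low cells, nearly all of the called CpGs had a higher level with EM at ×2.5. Of the 5019 CpGs, 147 (2.93%) were methylated and 4 (0.0797%) were demethylated in Low ×2.5 vs. Low Control, where 1.53% and 0.47% of all tested CpGs were. The median difference was 0.26 on the log2 scale, against 0.10 over all tested CpGs. It was -0.0065 with equal SD, of the opposite sign, 0.42 without Low Control replicate 1 and 0.15 without Low Control replicate 3. An unadjusted p-value under 0.05 was found for 550 of the 5019, beside 2559 of all 31500 tested CpGs. The split was 87 methylated and 16 demethylated with each library centred on its median, 70 and 27 with quantile normalization, and 64 and 42 with an equal SD of all libraries. The total of 151 rested on single libraries, since it was 337 without Low Control replicate 1 and 75 without Low Control replicate 3. The called CpGs lay in 97 regions, the most in the PPP2R2A region with 5 of its 71 highly methylated CpGs, all methylated. PPP2R2A is a regulatory subunit of a serine/threonine protein phosphatase. The 4 demethylated CpGs, looked up after their values were seen, were at chr4:28976628 (ITGB8), chr17:35647044 (IL2), chr24:56951134 (ST8SIA3) and chr27:10389660 (TENM3, a teneurin).

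In that contrast, the smallest p-value of a highly methylated CpG was found at chr24:35875127, among CpGs assigned to CETN1, a centrin of the centrosome. Its levels were 86.2%, 86.7% and 88.9% in Low Control and 95.3%, 96.4% and 96.3% in Low ×2.5. The groups do not overlap, and the log2 difference was 1.83 (SE 0.33, adjusted p = 0.378, limma; 0.0640 to 0.857 over the alternatives), or 1.55 with equal SD. Its other strand, at position 35875126, had a log2 difference of 0.04 in the same libraries.

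For Low ×5 vs. Low Control, 216 (4.30%) of the highly methylated CpGs were methylated and 4 (0.0797%) demethylated, while the shares of all tested CpGs were 1.78% and 0.619%. This was the largest number of calls among the 7 contrasts. Without adjustment, p was under 0.05 for 668 of the 5019, beside 2700 of all 31500 tested CpGs. The median difference was 0.31, against 0.10 over all tested CpGs. This median was 0.0075 with equal SD, 0.46 without Low Control replicate 1 and 0.20 without Low Control replicate 3. After centring on the median, 139 were methylated and 14 demethylated; after quantile normalization, 96 and 32; with equal SD, 83 and 43. The total of 220 was 446 without Low Control replicate 1, 144 without Low Control replicate 2, 102 without Low Control replicate 3 and 141 without Low ×5 replicate 1. Calls were spread over 118 regions. The CCDC93 region, chr2:70592788-70594804, had 8 among its 90 highly methylated CpGs and the ALG6 region, chr3:82708009-82911078, had 7 of 97, all of them methylated. The 4 demethylated CpGs were those of ITGB8 and TENM3 named above, chr11:107285364 (IFITM3) and chr27:37609673 (INTS10, a subunit of the Integrator complex). CCDC93 takes part in endosomal recycling, and ALG6 adds glucose to the precursor of N-linked glycans.

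At chr1:144115768, among CpGs assigned to TFF3, a secreted trefoil peptide, the levels were 84.8%, 85.7% and 85.0% in Low Control and 94.6%, 93.0% and 93.8% in Low ×5. The groups do not overlap, and the log2 difference was 1.40 (SE 0.23, adjusted p = 0.165, limma; 0.0600 to 0.749 over the alternatives), or 1.11 with equal SD. The other strand was not among the tested CpGs. The mean M-value of this CpG was 3.01, just above the threshold, which it met through Low ×5, where its level was highest.

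In High cells, most of the called CpGs had a lower level with EM. Of the highly methylated CpGs, 54 (1.08%) were demethylated and 5 (0.0996%) methylated in High ×2.5 vs. High Control, beside 0.676% and 0.343% of all tested CpGs. Their median difference was -0.11, against -0.02 over all tested CpGs. It was -0.0064 with equal SD, -0.19 without High ×2.5 replicate 1 and -0.040 without High ×2.5 replicate 3. An unadjusted p-value under 0.05 was found for 285 of the 5019, beside 1582 of all 31500 tested CpGs. The demethylated and methylated numbers were 49 and 17 after centring, 32 and 24 after quantile normalization, and 32 and 25 with equal SD. The total of 59 was 90 without High ×2.5 replicate 1 and 36 without High ×2.5 replicate 3. Of the called CpGs, 4 lay in a region of C14H8orf33 with 84 highly methylated CpGs (chr14:470738-500871), and all 4 were demethylated. The 5 methylated CpGs, again named after their values were seen, were at chr3:119103163, chr11:70174922 (YPEL5), chr11:107304916 (IFITM3), chr17:35643703 (IL2) and chr29:19447597 (PAK1, a kinase downstream of RAC1).

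High ×5 vs. High Control gave 104 demethylated CpGs (2.07%) and 6 methylated CpGs (0.120%), where 1.08% and 0.292% of all tested CpGs were called in these directions. Without adjustment, p was under 0.05 for 464 of the 5019, beside 1957 of all 31500 tested CpGs. Here the median difference was -0.20, against -0.08 over all tested CpGs. The median was -0.021 with equal SD. With centring the numbers were 88 demethylated and 14 methylated, with quantile normalization 59 and 24, and with equal SD 66 and 24. Without High ×5 replicate 2, the total of 110 was 61. The PPP6R3 region had 4 of the calls, all demethylated, among its 71 highly methylated CpGs.

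Among the highly methylated CpGs, the same one had the smallest p-value in both High contrasts. It is at chr11:99115179, which lies in the SPTAN1 region but was not assigned to a gene. SPTAN1 is an alpha spectrin of the membrane skeleton. Its levels were 93.9%, 92.8% and 94.2% in High Control, 86.9%, 87.0% and 88.9% in High ×2.5, and 84.8%, 85.2% and 87.5% in High ×5. Both supplemented groups lay below High Control without overlap. The mean M-value of this CpG was 3.02, just above the threshold, which it met through High Control, where its level was highest. The log2 difference was -1.06 at ×2.5 (SE 0.19, adjusted p = 0.693, limma; 0.377 to 1 over the alternatives) and -1.27 at ×5 (SE 0.19, adjusted p = 0.172, limma; 0.0896 to 1). With equal SD these differences were -0.95 and -1.11. In Low cells its mean level was 89.3% in the Control, 86.1% at ×2.5 and 89.6% at ×5. Among the highly methylated CpGs, its p-value was also the smallest in the F-test (adjusted p = 0.549, limma, 0.217 to 0.973 over the alternatives).

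Glucose was compared at each EM level. At the Control level, 150 (2.99%) of the highly methylated CpGs were methylated and 9 (0.179%) demethylated in High Control vs. Low Control, with 1.38% and 0.543% among all tested CpGs. An unadjusted p-value under 0.05 was found for 552 of the 5019, beside 2508 of all 31500 tested CpGs. The median difference was 0.24, against 0.08 over all tested CpGs. Scaled to equal SD, the median was 0.0097, and it was 0.40 without Low Control replicate 1 and 0.14 without Low Control replicate 3. Methylated and demethylated numbers were 108 and 22 after centring, 67 and 40 after quantile normalization, and 67 and 48 with equal SD. The total of 159 was 342 without Low Control replicate 1, 97 without Low Control replicate 2 and 80 without Low Control replicate 3. The CCDC93 region had 5 of the calls, all methylated, and the IFITM3 region had 5, of which 4 were methylated.

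In this contrast the smallest p-value of a highly methylated CpG was at chr10:96712082, among CpGs assigned to MIR2293, a microRNA gene. The levels were 89.5%, 81.0% and 88.9% in Low Control and 96.6%, 95.2% and 95.2% in High Control, without overlap. The log2 difference was 1.75 (SE 0.36, adjusted p = 0.367, limma; 0.117 to 0.833 over the alternatives), or 1.53 with equal SD.

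With EM at ×2.5, most calls of the glucose contrast had the other direction. In High ×2.5 vs. Low ×2.5, 53 (1.06%) were demethylated and 8 (0.159%) methylated, beside 0.698% and 0.308% of all tested CpGs. An unadjusted p-value under 0.05 was found for 329 of the 5019, beside 1619 of all 31500 tested CpGs. Over all highly methylated CpGs the median difference was -0.13, against -0.04 over all tested CpGs. At equal SD that median was 0.0093, of the opposite sign, and it was -0.20 without High ×2.5 replicate 1 and -0.053 without High ×2.5 replicate 3. The numbers were 46 demethylated and 15 methylated after centring, 42 and 23 after quantile normalization, and 39 and 25 with equal SD, and the total of 61 was 104 without High ×2.5 replicate 1. The smallest p-value of a highly methylated CpG was at chr5:53755482, among CpGs assigned to SLC16A7, a transporter of pyruvate and lactate. Levels there were 96.1%, 95.5% and 96.0% in Low ×2.5 and 89.7%, 82.4% and 85.7% in High ×2.5, without overlap, and differed by -1.89 on the log2 scale (SE 0.42, adjusted p = 0.945, limma; 0.489 to 1), or by -1.76 with equal SD. The other strand of that site, with a mean level of 91.0%, had a log2 difference of -0.04. The mean M-value of the called strand was 3.13, and it met the threshold through Low ×2.5, where its level was highest.

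With EM at ×5, 163 (3.25%) of the highly methylated CpGs were demethylated and 6 (0.120%) methylated in High ×5 vs. Low ×5, while 1.3% and 0.305% of all tested CpGs were. An unadjusted p-value under 0.05 was found for 563 of the 5019, beside 2108 of all 31500 tested CpGs. Here the median was -0.27, against -0.10 over all tested CpGs. Its value with equal SD was -0.010. After centring 113 were demethylated and 11 methylated, after quantile normalization 75 and 22, and with equal SD 69 and 24. The total of 169 was 95 without Low ×5 replicate 1 and 85 without High ×5 replicate 2. Of the calls, 6 lay in the ALG6 region and 5 in the ST8SIA3 region, chr24:56948099-56960467, all demethylated. ST8SIA3 adds sialic acid to glycans. Among the highly methylated CpGs, the one near TFF3 at chr1:144115768 again had the smallest p-value. Its levels were 86.4%, 84.0% and 85.7% in High ×5 against 94.6%, 93.0% and 93.8% in Low ×5. The log2 difference was -1.38 (SE 0.23, adjusted p = 0.126, limma, 0.0624 to 0.953 over the alternatives), or -1.14 with equal SD.

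**Figure D4:**
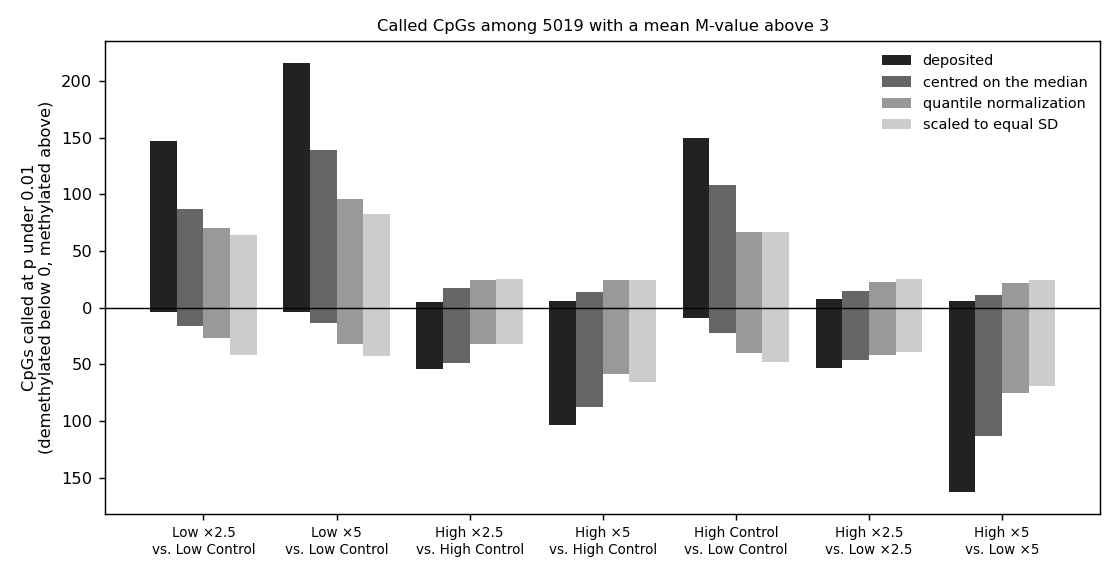
Number of the 5019 highly methylated CpGs called at an unadjusted p-value under 0.01 in each contrast (bars above 0 methylated, bars below 0 demethylated in the treatment named first) in the deposited M-values and under 3 scalings of the libraries. For Low ×5 vs. Low Control the numbers go from 216 methylated and 4 demethylated to 83 and 43 with equal SD; in each contrast the more frequent direction stays the same.

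The difference between the EM effect in High cells and in Low cells was tested as an interaction in the same fit, where demethylated stands for a lower EM effect in High cells. At ×2.5, 173 (3.45%) of the highly methylated CpGs were demethylated and 3 (0.0598%) methylated, against 1.42% and 0.435% of all tested CpGs. At ×5, 295 (5.88%) were demethylated and 2 (0.0398%) methylated, against 2.23% and 0.568%. The median interaction was -0.36 at ×2.5 and -0.51 at ×5, while it was -0.12 and -0.18 over all tested CpGs. With equal SD, the demethylated and methylated numbers were 73 and 37 at ×2.5 and 105 and 40 at ×5. With quantile normalization they were 79 and 30 at ×2.5 and 109 and 37 at ×5. At ×2.5, the total of 176 was 332 without Low Control replicate 1, 105 without Low Control replicate 3 and 105 without High ×2.5 replicate 3. At ×5, the total of 297 was 504 without Low Control replicate 1 and 192 without Low Control replicate 3. In the F-test of the 6 treatment means, unadjusted p was under 0.05 for 496 of 5019 and 2157 of all 31500 tested CpGs. At p under 0.01, 114 (2.27%) were called, against 1.44% of all tested CpGs. That total of 114 was 226 without Low Control replicate 1 and 84 with equal SD.

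In the interaction at ×5, adjusted p was under 0.05 for 2 highly methylated CpGs and for 3 of all tested CpGs. The first is the CpG near TFF3 described above, whose interaction was -2.23 on the log2 scale (SE 0.32, adjusted p = 0.0389, limma). In High Control it had 91.5%, 91.2% and 90.9%, so that EM at ×5 went with a higher level in Low cells and a lower level in High cells without overlap in either. The second, at chr2:27698417, lies among CpGs assigned to CERS6, a ceramide synthase, and was singled out after its values were seen. Its levels were 93.2%, 90.9% and 90.9% in Low Control, 97.8%, 96.6% and 96.5% in Low ×5, 97.6%, 96.2% and 96.4% in High Control and 91.4%, 91.3% and 93.0% in High ×5. The interaction there was -2.96 (SE 0.43, adjusted p = 0.0389, limma). These adjusted p-values ranged from 0.0209 to 0.653 and from 0.0202 to 0.694 over the alternatives. They stayed under 0.05 in 2 and in 4 of 20 alternatives. Levels as fractions and the omission of single ×2.5 libraries are in the ranges but not among these 20. With equal SD the interactions were -1.79 and -2.39.

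The treatment differences varied with the mean methylation of the CpG. In Low ×5 vs. Low Control, the median log2 difference was -0.75 in CpGs whose mean was -3 or lower, 0.01 between -1 and 1, 0.15 between 1 and 3, 0.32 between 3 and 3.5, 0.33 between 3.5 and 4 and 0.27 above 4. In percent, the median difference was 2.10 percentage points between 3 and 3.5, 1.69 between 3.5 and 4 and 0.900 above 4. Thus the highly methylated CpGs shifted by about the same log2 amount whatever their level, which is a smaller number of percentage points the closer the level is to 100%. For High ×5 vs. High Control, the medians were -0.18, -0.22 and -0.24 in the 3 upper classes. With libraries scaled to equal SD, the medians of these 3 classes lay between -0.11 and 0.05 in all 7 contrasts. The lowest class kept more of its difference, with -0.40, -0.48 and -0.35 in Low ×2.5, Low ×5 and High Control vs. Low Control, against -0.59, -0.75 and -0.55 in the deposited values. Each library was centred on its median and scaled as a whole here. These values therefore hold what is left in the class after a common shift and a common change of spread are taken out.

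**Figure D5:**
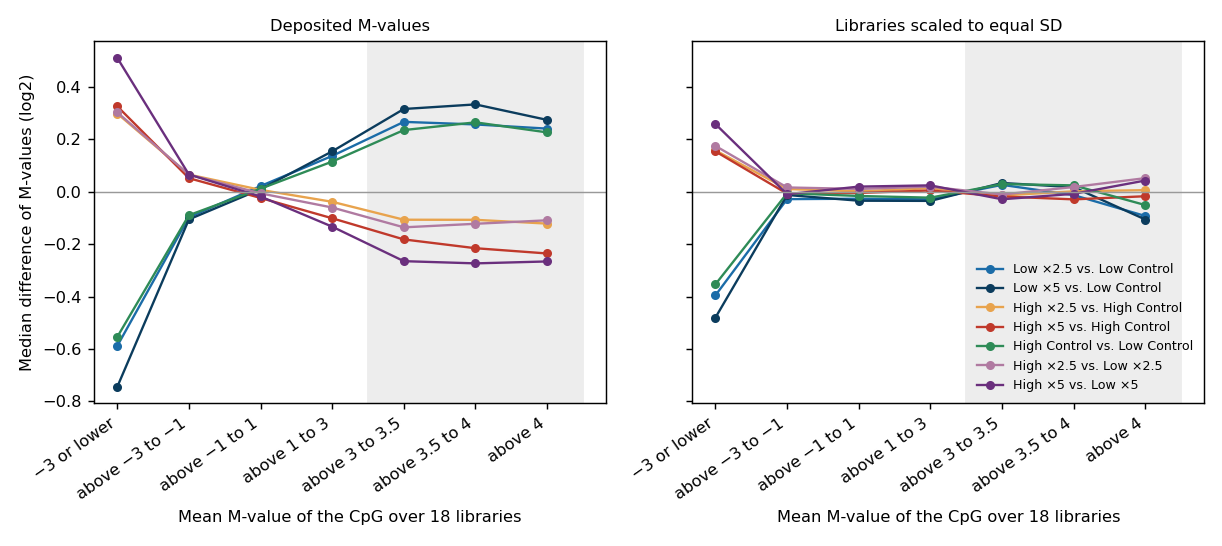
Median difference of M-values (log2) between treatments in 7 classes of tested CpGs ordered by their mean M-value over 18 libraries, in the deposited values (left) and with libraries scaled to equal SD (right); each line is a contrast, and the grey area marks the highly methylated CpGs. On the left, contrasts with Low Control lie above 0 in the grey area (0.23 to 0.33) and below 0 in the lowest class (-0.55 to -0.75), and the other 4 run the opposite way; on the right all medians of the grey area lie between -0.11 and 0.05, while those of the lowest class in the contrasts with Low Control are still at -0.35 to -0.48.

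The median differences were of similar size inside and outside of runs, which was not tested. In Low ×5 vs. Low Control, the median log2 difference was 0.28 for the 1848 CpGs in runs of at least 3 and 0.33 for the 3171 CpGs in shorter runs, and 3.52% and 4.89% of them were called. In High ×5 vs. Low ×5, the medians were -0.24 and -0.29, and 2.49% and 3.88% were called. For the 481 CpGs in runs of at least 10, the medians were 0.26 and -0.24. Neighbouring highly methylated CpGs varied together only weakly. The correlation of their deviations between replicates was 0.18 for neighbours of different sites up to 10 bp apart, 0.11 at 11 to 50 bp and 0.07 at 51 to 100 bp. It was 0.03 between both strands of a site, which share the 18 libraries, and -0.0037 for neighbours over 10 kb apart.

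Where a CpG was called, its other strand was compared. In Low ×5 vs. Low Control, 76 of the called CpGs had their other strand tested. That strand differed in the same direction in 60 of them (78.9%), against 65.8% of all highly methylated CpGs with a tested partner, and was itself called in 0, where 3.19% of the 2197 partners of highly methylated CpGs were methylated. For Low ×2.5 vs. Low Control, 44 of 60 (73.3%) had the same direction, against 62.6%, and 2 (3.33%) were called, beside 2.64% of all partners. For High ×5 vs. High Control, it was 36 of 51 (70.6%), against 60.4%, and 3 (5.88%) were called, beside 1.87% demethylated among all partners. For High ×5 vs. Low ×5, it was 48 of 63 (76.2%), against 64.6%, and 4 (6.35%) were called, beside 2.32%. In the other 3 contrasts, with 22 to 64 such CpGs, no partner was called. These numbers of called partners are small, and their difference from the shares of all partners was not tested. The shares with the same direction hold the common shift of all highly methylated CpGs. Their difference was positive in 78.4% in Low ×5 and 74.9% in Low ×2.5 vs. Low Control. It was positive in 28.6% in High ×5 vs. High Control and 22.9% in High ×5 vs. Low ×5. The same direction on both strands is therefore no sign that a call is shared by them. The called strand of the methylated CpGs in Low ×5 vs. Low Control had a median log2 difference of 1.21 and its partner had 0.42. In the demethylated CpGs of High ×5 vs. Low ×5, the medians were -1.18 and -0.33. The called strand was selected by its p-value and its partner was not, so the medians of the called strands are the larger ones by construction.

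The genes that the study names from RRBS held highly methylated CpGs in unequal numbers. The list was known from earlier results of these libraries, and no test was made on it. ADCYAP1, which encodes the neuropeptide PACAP, a stimulator of adenylate cyclase, had 18 of 93 assigned CpGs above 3. For ARRDC3, an arrestin-related adaptor, the number was 20 of 127, for MAP2K6, the kinase that activates p38, 8 of 71, and for SFRP1, a secreted Wnt antagonist, 12 of 130. IL2 had 98 of 331. PDGFA, a growth factor of fibroblasts, had 0 of 2, and no tested CpG was assigned to RAC1, a small GTPase of the cytoskeleton.

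Among the 18 ADCYAP1 CpGs, on chromosome 24, the mean level was 88.3% ± 1.86 (SD, n = 3) in Low Control, 91.0% ± 0.490 in Low ×2.5, 92.7% ± 0.729 in Low ×5, 91.6% ± 0.963 in High Control, 90.7% ± 0.929 in High ×2.5 and 89.7% ± 0.668 in High ×5. In Low ×5 vs. Low Control, 5 of them (27.8%) were methylated and 0 demethylated, beside 4.30% methylated among all highly methylated CpGs and 1.78% among all tested CpGs. The median log2 difference was 0.70, and with equal SD it was 0.41 with 2 methylated. In High Control vs. Low Control, 4 (22.2%) were methylated, beside 2.99% of the highly methylated CpGs and 1.38% of all tested, with a median of 0.53 (0.33 and 1 methylated with equal SD). In High ×5 vs. Low ×5, 4 (22.2%) were demethylated, beside 3.25% and 1.3%, with a median of -0.46 (-0.20 and 3 demethylated with equal SD). In High ×5 vs. High Control, 2 (11.1%) were, beside 2.07% and 1.08%, with a median of -0.26 (-0.079 and 1 demethylated with equal SD). The list was chosen with these results known, so these shares are no test. The directions are those of the highly methylated CpGs at large.

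Of the 98 IL2 CpGs, 4 (4.08%) were methylated in Low ×5 vs. Low Control, close to the 4.30% of all highly methylated CpGs, and no more than 1 (1.02%) was called in any other contrast. Of the 20 ARRDC3 CpGs, 1 was called, demethylated in High ×5 vs. Low ×5. The 12 SFRP1 CpGs had 1 demethylated CpG in High ×5 vs. High Control and 1 in High ×5 vs. Low ×5. The 8 MAP2K6 CpGs had 1, demethylated in High ×2.5 vs. Low ×2.5. Single calls are 5% of the CpGs for ARRDC3, 8.33% for SFRP1 and 12.5% for MAP2K6, and nothing is read from them. The median log2 difference in Low ×5 vs. Low Control was 0.18 for IL2, 0.33 for ARRDC3, 0.54 for SFRP1 and 0.12 for MAP2K6, beside 0.31 for all 5019. With equal SD these medians were -0.13, 0.022, 0.23 and -0.17, beside 0.0075.

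The regions with the highest number or share of highly methylated CpGs were set beside all 5019. In Low ×5 vs. Low Control, where 4.38% of all highly methylated CpGs were called, it was 3 of 130 (2.31%) in the IFITM3 region, 5 of 105 (4.76%) in the IL2 region, 2 of 103 (1.94%) in the CEP162 region and 1 of 88 (1.14%) in the PLOD3 region. In Low ×2.5 vs. Low Control, it was 3 of 88 (3.41%) in the PLOD3 region, where the share overall was 3.01%, and in High Control vs. Low Control 5 of 130 (3.85%) in the IFITM3 region, where it was 3.17%. With equal SD, the median log2 differences of these regions in Low ×5 vs. Low Control were -0.21, -0.092, -0.13 and 0.027, against 0.14, 0.22, 0.21 and 0.38 in the deposited values, in the order IFITM3, IL2, CEP162 and PLOD3. Mean levels of the 88 PLOD3 CpGs were 93.1% ± 1.38 (SD, n = 3) in Low Control and 94.6% ± 0.601 in Low ×5, and 94.4% ± 0.252 in High Control and 93.6% ± 0.707 in High ×5. In the CEP162 region they were 93.1% ± 0.923, 94.1% ± 0.282, 93.8% ± 0.104 and 93.0% ± 0.471 in the same order. Over all 7 contrasts, 4423 of the 5019 highly methylated CpGs were called in none (88.1%), 356 in 1 (7.09%) and 177 in 2 (3.53%). Beyond these, 42 were called in 3 (0.837%), 14 in 4 (0.279%), 6 in 5 (0.120%) and 1 in all 7. Over all 31500 tested CpGs, 92.1% were called in none, 5.32% in 1 and 1.97% in 2. The shares there were 0.473% in 3, 0.0952% in 4 and 0.0381% in 5, and 2 CpGs were called in all 7. The contrasts share treatments.

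The CpG called in all 7 contrasts was at chr8:70974437, among CpGs assigned to TNFRSF10D, a decoy receptor for the death ligand TRAIL, and was singled out after its values were seen. Its levels were 94.2%, 82.4% and 88.2% in Low Control, 93.9%, 96.2% and 93.8% in Low ×2.5 and 92.7%, 95.7% and 95.7% in Low ×5. They were 95.1%, 94.1% and 95.6% in High Control, 90.4%, 89.3% and 86.4% in High ×2.5 and 88.9%, 87.5% and 89.6% in High ×5. High ×2.5 and High ×5 lay below High Control without overlap, while Low Control replicate 1 lay within the range of the supplemented Low libraries. The log2 difference was 1.13 in Low ×2.5 and 1.15 in Low ×5 relative to Low Control, and -1.25 in High ×2.5 and -1.27 in High ×5 relative to High Control. On the other strand of this site, they were -0.0083, 0.26, -0.33 and -1.15 in the same order.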

How the data were processed

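The authors trimmed the reads with Cutadapt and the diversity trimming of the library kit, and used Bismark 0.22.3 in the methylseq pipeline for mapping to bosTau8 and for methylation calls. Only cytosines in a CpG context were kept, and they were filtered on high coverage and on few reads. The deposited values are log2 ratios, M-values of 31500 CpGs in 18 libraries, with an offset that is not given in the sources used here. Depth is unknown from the values, so no counting interval was computed. An offset pulls an M-value toward 0.

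Levels in percent were derived from the ratios and still hold the offset. CpGs with a mean M-value above 3 over the 18 libraries, each with the same weight, were selected. Treatments were compared in R 4.3.3 by limma 3.58.1 (two-sided moderated tests after lmFit and eBayes, 12 residual and 4.11 prior degrees of freedom) on all 31500 CpGs and 18 libraries, with 1 mean per treatment. The call threshold was p under 0.01 without adjustment, and Benjamini-Hochberg adjustment was made over all tested CpGs. The interaction of glucose and EM was tested in the same fit. The steps were tested on simulated data. Python 3.11.15 served for the other steps, with pandas 2.3.3 and numpy 2.4.6 for tables, scipy 1.17.1, and matplotlib 3.10.9 for figures.

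Regions are separated by more than 10 kb, and runs join consecutive selected CpGs less than 100 bp apart. Genes were taken from the closest start sites in the study's supplementary tables, and all tested CpGs from the first to the last listed one of a gene were counted with it, except where such spans overlapped. Of 367 gene identifiers, 364 were found in the RefSeq table of genes (ARS-UCD2.0), which was used for names only. No sequence is shown, since no genome of bosTau8 was used here.

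The rule for named CpGs took, in each contrast and the F-test, every selected CpG below an adjusted p of 0.05 or, without any, that of smallest p, and besides the highest 5, the 3 on each side of the threshold, the longest 3 runs, the 3 regions with the most, the regions of at least 50 tested CpGs with the highest and lowest share, the largest and smallest SD, and the genes that the study names. The selected CpGs, the lists, the tests and the rule were chosen with earlier results of these data known. Alternatives to this fit were a trended and robust eBayes, fits on only the 6 libraries of each contrast, a block for the replicate number, the omission of each replicate number, libraries centred on the median, scaled to equal SD or quantile normalized, levels as fractions, selection by the libraries outside the contrast, and the adjusted p-value. Scaling to equal SD included centring on the median. For runs, the alternatives were gaps of 50 and 200 bp and means above 2.5 and 3.5. The interaction, its alternatives and the omission of single libraries were chosen after seeing the data.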

Additional observations from a re-analysis of the deposited data

Results flagged for a closer look

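The effect of EM at ×5 differed between High and Low cells at 2 of the highly methylated CpGs with an adjusted p-value under 0.05 (limma, Benjamini-Hochberg over all tested CpGs). The first is at chr1:144115768 near TFF3, where the interaction was -2.23 on the log2 scale (adjusted p = 0.0389, limma). The mean M-value of this CpG was 3.01, just above the threshold, which it met through the Low ×5 libraries. The second is at chr2:27698417 near CERS6, where it was -2.96 (adjusted p = 0.0389, limma). In both, all 3 Low ×5 libraries lay above all Low Control libraries, and all 3 High ×5 libraries lay below all High Control libraries. The interaction was added after the data were seen, and both CpGs were picked by its p-value. The separation of the libraries is therefore no further support. The adjusted p-value stayed under 0.05 in 2 of 20 alternatives for the first CpG and in 4 of 20 for the second, and the sign was kept in all of them.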

How the results depend on the processing

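Depth per CpG is unknown, so counting error was not estimated. At an adjusted p-value under 0.05, the number of highly methylated CpGs was 0 in each of the 7 contrasts, 0 in the F-test and 0 in the interaction at ×2.5, and 2 in the interaction at ×5.

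With levels as fractions, the number called was 71 in Low ×2.5 vs. Low Control, 80 in Low ×5 vs. Low Control, 15 in High ×2.5 vs. High Control, 48 in High ×5 vs. High Control, 74 in High Control vs. Low Control, 17 in High ×2.5 vs. Low ×2.5, 61 in High ×5 vs. Low ×5, 30 in the F-test, 54 in the interaction at ×2.5 and 133 at ×5. Quantile normalization gave 97 in Low ×2.5 vs. Low Control, 128 in Low ×5 vs. Low Control, 97 in High ×5 vs. Low ×5, and 109 and 146 in the interactions. Equal SD gave 126 in Low ×5 vs. Low Control, 93 in High ×5 vs. Low ×5, and 110 and 145 in the interactions, and centring gave 195 in the interaction at ×5. In the same fits, the direction with more calls did not change in any contrast or interaction. The shares of all tested CpGs called in the alternative fits are given neither here nor above. These numbers therefore show how a count moved, and not whether it still exceeded the share of all tested CpGs.

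Centring moved the median of all tested CpGs from 0.10 to -0.05 in Low ×2.5 vs. Low Control, from 0.10 to -0.06 in Low ×5 vs. Low Control, from 0.08 to -0.04 in the glucose contrast of the Controls and from -0.10 to 0.04 in High ×5 vs. Low ×5. Relative to all tested CpGs, the deposited medians of the highly methylated CpGs were 0.17, 0.21, 0.16 and -0.17. The median of the highly methylated CpGs was -0.11 after centring in High ×5 vs. High Control and -0.13 in High ×5 vs. Low ×5. With equal SD it was -0.0065 in Low ×2.5 vs. Low Control, 0.0075 in Low ×5 vs. Low Control, -0.021 in High ×5 vs. High Control, 0.0097 in High Control vs. Low Control, 0.0093 in High ×2.5 vs. Low ×2.5 and -0.010 in High ×5 vs. Low ×5. After quantile normalization it was 0.031, 0.048, -0.013 and 0.030 in the first 4 of these and -0.023 in the last. Both scalings take out a common shift of the median and a common change of spread by construction.

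Leaving out a replicate number or a single library gave 56 to 370 calls in Low ×2.5 vs. Low Control, 99 to 446 in Low ×5 vs. Low Control, 36 to 105 in High ×2.5 vs. High Control, 61 to 161 in High ×5 vs. High Control, 80 to 342 in High Control vs. Low Control, 48 to 157 in High ×2.5 vs. Low ×2.5, 72 to 216 in High ×5 vs. Low ×5, 56 to 226 in the F-test, 54 to 397 in the interaction at ×2.5 and 152 to 504 at ×5. Without Low Control replicate 1 the number was highest or close to highest in the contrasts with Low Control. The medians kept their sign, from 0.12 to 0.46 in Low ×2.5, from 0.20 to 0.46 in Low ×5 and from 0.12 to 0.40 in High Control, each vs. Low Control, from -0.19 to -0.032 and from -0.26 to -0.14 in High ×2.5 and High ×5 vs. High Control, and from -0.24 to -0.027 and from -0.36 to -0.20 in High vs. Low at ×2.5 and ×5. The cause was not tested.

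The share of highly methylated CpGs in runs of at least 3 was 36.8% with gaps under 50 bp, 37.1% with gaps under 200 bp, 48.0% with means above 2.5 and 33.0% with means above 3.5.

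In the correlations between libraries, the replicate numbers gave no pairing, while 1 mean level did differ by replicate number. Of 45 pairs of libraries with the same number in different treatments, the correlation of their deviations was above 0.1 in 1, with a range from -0.11 to 0.12, and 6 of 18 libraries were on average most like their own number. The mean level of the CpGs with a mean M-value between -1 and 1, which such correlations need not show, was higher in replicate 1 than in replicate 3 in 6 of 6 treatments, by 0.634 to 1.21 percentage points. With the replicate number as a block, the counts were 152, 217, 54, 125, 146, 69 and 167 in the 7 contrasts in the order of the report, 124 in the F-test and 176 and 304 in the interactions, all within 1.5 times the counts without the block.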
